A study of Homo sapiens with 9 samples.

Results

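10 genes of retinoic acid metabolism and signaling were followed in ES-2 cells, an established human ovarian carcinoma line, upon depletion of the mRNA-binding protein IGF2BP1 or of the transcription factor SRF (serum response factor). They are DHRS3, RDH10, ALDH1A1, ALDH1A3, RARA, RARB, RARG, CRABP2, CYP26B1 and STRA6, found by gene symbol, 10 of the 58174 genes listed. The set was chosen on the fold changes of DHRS3, which differed from control cells in opposite directions in the knockdowns, and the question was whether related genes follow it. The values of DHRS3 are therefore given as a description, without a test.

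Retinoic acid is made inside the cell from vitamin A (retinol), which the membrane receptor STRA6 can take up. RDH10 oxidizes retinol to retinal, DHRS3 reduces retinal back to retinol, and the ALDH1A enzymes oxidize retinal irreversibly to retinoic acid. CRABP2 carries retinoic acid to its nuclear receptors RARA, RARB and RARG, which bind DNA with a retinoid X receptor (RXR), whereas CYP26 enzymes degrade it, and DHRS3, RARB, STRA6, CRABP2 and the CYP26 genes are themselves known to be induced by retinoic acid in many cells.

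Cells were transfected with control siRNA (siC), an siRNA pool against IGF2BP1 (siIGF2BP1) or an siRNA pool against SRF (siSRF) and harvested after 72 h, with 3 libraries of rRNA-depleted total RNA per condition. Each target was depleted by 1 pool, and all libraries come from 1 cell line grown in serum-containing medium; addition of a retinoid is not mentioned. The labels do not say whether the 3 libraries of a condition came from separate cultures, so p-values measure the spread between these libraries, which may be technical. Both comparisons with control cells share the 3 siC libraries, and siIGF2BP1 was also compared with siSRF directly.

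Levels are given as FPKM (fragments scaled to gene length and library size). They can be compared between genes only roughly, since a single length is used for each gene. Fold changes are differences of log2(FPKM + 0.1), a scale that understates the change of low genes. Library depth ranged from 6421764 to 9416175 gene-assigned reads. IGF2BP1 was at 12.8 ± 0.689 FPKM in siC and at 4.11 ± 0.0846 FPKM in siIGF2BP1 (SD, n = 3). SRF was at 14.5 ± 1.28 FPKM in siC, at 1.47 ± 0.145 FPKM in siSRF and also lower in siIGF2BP1, at 6.01 ± 0.714 FPKM (SD, n = 3). Each of these reductions passed limma (Benjamini-Hochberg adjusted p = 0.000141 for IGF2BP1 in siIGF2BP1, 6.07e-05 for SRF in siSRF and 0.00111 for SRF in siIGF2BP1). Of the epithelial markers KRT7, KRT8 and KRT18 were expressed in every library, EPCAM and CDH1 were at no more than 0.259 FPKM, and the mesenchymal marker VIM was at 837 to 1065 FPKM. Among ovarian and Müllerian markers PAX8 and WT1 were at no more than 0.262 FPKM, and MUC16 had no read. The leukocyte marker PTPRC had no read, and of the fibroblast markers DCN had 1 read in all libraries, while COL1A1 was at 20.9 ± 4.30 FPKM in siIGF2BP1 against 3.50 ± 0.719 FPKM in siC (SD, n = 3).

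To place the expression values beside the regulatory sequence, 250 bases upstream of a start site are shown for 3 genes, read from the RefSeq promoter table (GRCh38.p14) 5′ to 3′ on the strand of the gene. DHRS3 is shown, at the start of its annotated gene, because the selection rests on it, ALDH1A3 because it was the most abundant gene of the set and lay on the same side of siC as DHRS3 in both knockdowns, and RARB because it holds the only spaced repeat found. The window of DHRS3 is chr1:12618211-12618460 (minus strand), that of ALDH1A3 chr15:100879581-100879830 (plus strand) and that of RARB chr3:25428013-25428262 (plus strand). Capitals mark the hexamers to which retinoic acid receptors bind (AGGTCA or AGTTCA or GGGTCA or GGTTCA, searched on both strands).
DHRS3: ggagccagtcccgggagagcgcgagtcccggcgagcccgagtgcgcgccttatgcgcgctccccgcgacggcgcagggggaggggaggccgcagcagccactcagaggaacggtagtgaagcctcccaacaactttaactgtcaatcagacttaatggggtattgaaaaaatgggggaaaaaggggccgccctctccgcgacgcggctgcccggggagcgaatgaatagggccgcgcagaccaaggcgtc
ALDH1A3: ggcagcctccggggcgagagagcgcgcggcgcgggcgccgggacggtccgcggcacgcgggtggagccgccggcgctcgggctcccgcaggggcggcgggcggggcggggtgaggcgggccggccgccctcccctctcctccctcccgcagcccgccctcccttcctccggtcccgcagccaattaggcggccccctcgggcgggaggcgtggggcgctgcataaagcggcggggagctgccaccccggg
RARB: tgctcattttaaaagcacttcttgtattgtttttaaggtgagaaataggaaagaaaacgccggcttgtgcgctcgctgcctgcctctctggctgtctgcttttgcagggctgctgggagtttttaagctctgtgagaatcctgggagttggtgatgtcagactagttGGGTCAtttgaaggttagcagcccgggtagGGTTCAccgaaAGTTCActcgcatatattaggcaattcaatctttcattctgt
In the RARB sequence the second and the third hexamer form a direct repeat spaced by 5 bases, which starts 53 bases before the start site. RDH10 was left out of the search, which read 20 windows for the other 9 genes, so nothing is said about its promoter. A repeat with this spacing was found in 1 of the 20 windows, and in 0.0883% of all 35116 windows of the same length (250 bases before and 50 bases after the start). No window of the 9 genes searched held a repeat spaced by 1 base (0.131% of all windows) or by 2 bases (0.0399%). The other windows of DHRS3, at further start sites, held 1 hexamer each (AGGTCA on the opposite strand, 171 bases before the start, and GGTTCA, 172 bases before it). At least 1 hexamer occurred in 9 of the 20 windows and in 38.6% of all windows. The CArG box, the sequence SRF binds, had no match in these windows and one in 1.29% of all windows. These are matches of letters in short windows and say nothing about binding.

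In all, 6 of the genes had reads in every library. In siC they ranked ALDH1A3, RDH10, DHRS3, RARA, RARG and RARB, from 50.1 to 0.813 FPKM on average, and the libraries overlapped only between the neighbors DHRS3 and RARA. The other members, STRA6, CRABP2, ALDH1A1 and CYP26B1, were absent or carried by few reads.

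**Figure D1:**
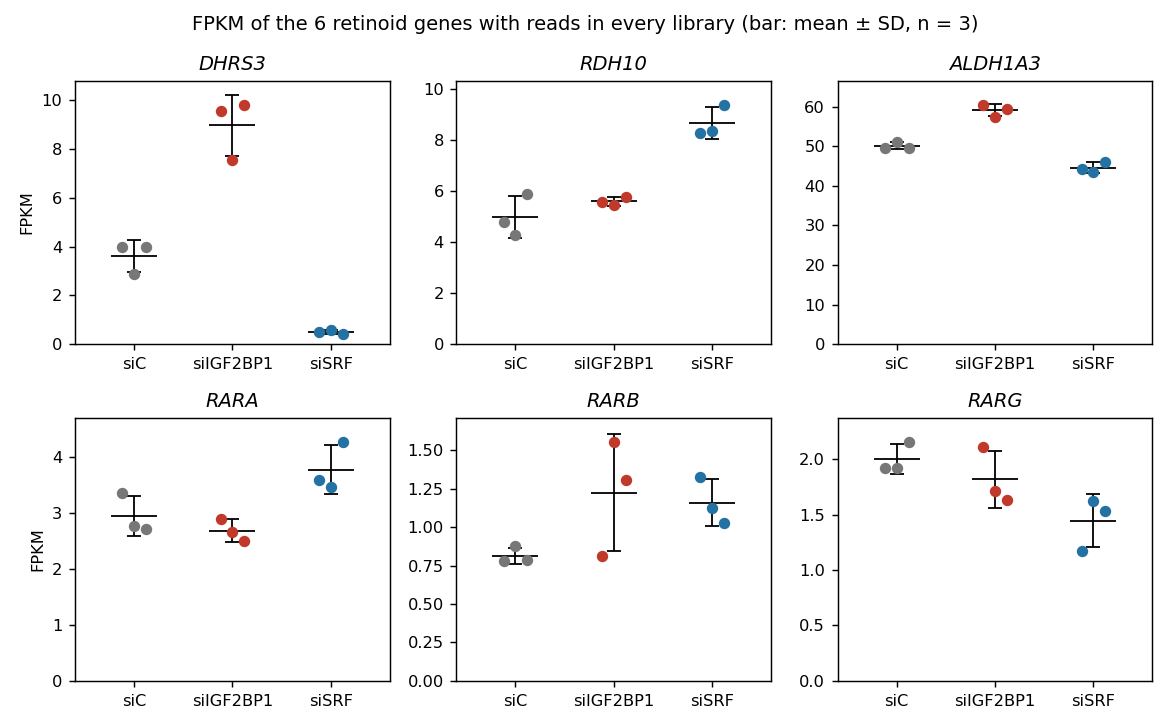
FPKM (vertical axis, linear, starting at 0) of DHRS3, RDH10, ALDH1A3, RARA, RARB and RARG in siC, siIGF2BP1 and siSRF. Points are the 3 libraries of a condition, and the horizontal line with error bar is their mean ± SD; DHRS3 and ALDH1A3 are highest in siIGF2BP1 and lowest in siSRF, whereas RDH10 and RARA are highest in siSRF.

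DHRS3, the retinal reductase (chr1:12567910-12618210, minus strand, 6 exons), was at 3.99, 2.86 and 3.96 FPKM in siC, at 9.54, 7.54 and 9.80 FPKM in siIGF2BP1 and at 0.508, 0.578 and 0.402 FPKM in siSRF. No library of a condition reached into another condition. The fitted log2 fold change was 1.30 in siIGF2BP1 and -2.63 in siSRF, and the knockdowns were 3.93 apart. No interval is given, since the gene was chosen by these fold changes. Depth was the limit in siSRF, where the 3 libraries held 11, 16 and 9 reads of DHRS3, against 59 to 87 in siC and 167 to 252 in siIGF2BP1. In these bulk samples less RNA per cell cannot be told apart from fewer cells that express the gene.

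Among the members tested, which leave out DHRS3, only RDH10 passed the threshold (adjusted p of at most 0.01 by limma) against control cells. RDH10 catalyzes the opposite step to DHRS3 and passed upon SRF depletion. It was at 4.78, 4.29 and 5.90 FPKM in siC and at 8.30, 8.35 and 9.38 FPKM in siSRF. Every siSRF library lay above every siC library, and the rise was 1.74-fold (log2 fold change 0.80, SE 0.128, limma, Benjamini-Hochberg adjusted p = 0.00676). This call depends on the number of libraries, since it was held without siC library 3 but lost when any other library was left out (0.70 to 0.92 on the log2 scale, highest adjusted p = 0.0286 by limma). In siIGF2BP1, RDH10 was at 5.56, 5.46 and 5.79 FPKM, within the range of siC (log2 fold change 0.18, 95% confidence interval -0.13 to 0.48, adjusted p = 0.418 by limma). Compared directly, RDH10 was lower in siIGF2BP1 than in siSRF (-0.62, SE 0.0706, adjusted p = 0.00109 by limma), with no overlap between libraries. The gene lies on chromosome 8 (73294602 to 73325281, plus strand), and the antisense gene RDH10-AS1, which covers 5.21% of its exonic bases, had no read.

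Set side by side in FPKM, RDH10 and DHRS3 changed order between conditions. This order rests on the gene lengths used (5321 and 3036 bases). In reads, not scaled to length, RDH10 was above DHRS3 in siIGF2BP1 too (700 against 641 over the libraries). The ratio of RDH10 to DHRS3 FPKM was 1.40 ± 0.170 in siC, 0.633 ± 0.0792 in siIGF2BP1 and 18.0 ± 4.69 in siSRF (SD, n = 3). The lowest ratio in a siC library was 1.20, all siIGF2BP1 libraries were at 0.583 to 0.724, and all siSRF libraries were at 14.4 to 23.3. Since DHRS3 chose the set, this ratio is a description of the levels.

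ALDH1A3, which forms retinoic acid from retinal (chr15:100877714-100916626, plus strand, 13 exons), shared the directions of DHRS3 at a much smaller size. Its level was 49.7, 51.2 and 49.5 FPKM in siC. In siIGF2BP1 the libraries were at 60.4, 57.4 and 59.3 FPKM, and in siSRF they were at 44.1, 43.5 and 46.1 FPKM. The 3 conditions did not overlap. Compared directly, ALDH1A3 was 1.33-fold higher in siIGF2BP1 than in siSRF (log2 difference 0.41, SE 0.0386, limma, Benjamini-Hochberg adjusted p = 0.00052). Against siC neither difference passed the threshold, with 0.24 on the log2 scale (95% interval 0.14 to 0.33, adjusted p = 0.0107 by limma) in siIGF2BP1 and -0.17 (-0.27 to -0.07, adjusted p = 0.0246) in siSRF. The value in siIGF2BP1 lay at the threshold and passed it when the recovered reads were tested with limma-voom (adjusted p = 0.00144). ALDH1A3-AS1, on the opposite strand over 32.1% of the exonic bases of ALDH1A3, was at 0.325 to 0.784 FPKM. Because the sources do not state whether reads were counted by strand, reads of such pairs may have been mixed.

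ALDH1A1, another enzyme of this step, had no read in 7 of the libraries. Its reads were confined to siIGF2BP1 library 3 (7 reads, 0.290 FPKM) and siSRF library 2 (21 reads, 0.809 FPKM). The conditions thus overlapped at 0. In the libraries at 0, the limit of 3 reads allowed up to 0.137 to 0.160 FPKM. ALDH1A3 provided at least 98.1% of the summed FPKM of ALDH1A1, ALDH1A2 and ALDH1A3 in every library.

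None of the 3 retinoic acid receptors passed the threshold in any comparison, and they did not share a direction. RARA (chr17:40309180-40357643, plus strand) was the most abundant of them in each condition on average. It was at 3.36, 2.77 and 2.72 FPKM in siC, at 2.90, 2.67 and 2.50 FPKM in siIGF2BP1 and at 3.59, 3.46 and 4.27 FPKM in siSRF. All siSRF libraries were above all others, while siC and siIGF2BP1 overlapped. The log2 fold change was 0.34 (95% confidence interval 0.02 to 0.67, adjusted p = 0.124 by limma) in siSRF and -0.13 (-0.44 to 0.19, adjusted p = 0.568) in siIGF2BP1. In the direct comparison RARA was at -0.47 (SE 0.119, adjusted p = 0.0254 by limma), a value that passed the threshold by limma-voom on the recovered reads (adjusted p = 0.00402). RARA-AS1, which lies opposite 11.7% of the exonic bases, was at 0.0766 to 0.528 FPKM.

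RARB (chr3:24687887-25597932, plus strand), the receptor with the spaced repeat shown above, was at 0.778, 0.876 and 0.785 FPKM in siC, at 0.811, 1.56 and 1.31 FPKM in siIGF2BP1 and at 1.33, 1.13 and 1.03 FPKM in siSRF. The first siIGF2BP1 library lay inside the siC range, so that only siSRF was separated from siC. The log2 fold change was 0.50 (95% confidence interval -0.17 to 1.16, adjusted p = 0.292 by limma) in siIGF2BP1 and 0.46 (-0.02 to 0.94, adjusted p = 0.156) in siSRF. RARB had 19 to 42 reads per library, and with 1 library left out the value in siIGF2BP1 lay between 0.31 and 0.75. Between the knockdowns RARB was at 0.04 (-0.62 to 0.69, adjusted p = 0.944 by limma), which leaves room for a difference in either direction.

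RARG (chr12:53210567-53232980, minus strand) was at 1.92, 1.92 and 2.16 FPKM in siC, at 2.11, 1.71 and 1.64 FPKM in siIGF2BP1 and at 1.18, 1.63 and 1.53 FPKM in siSRF. Each siSRF library was below each library of the other conditions. The log2 fold change was -0.45 (95% confidence interval -0.87 to -0.04, adjusted p = 0.114 by limma) in siSRF and -0.14 (-0.51 to 0.23, adjusted p = 0.606) in siIGF2BP1.

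Summed over the 3 receptors, siC had 5.76 ± 0.262 FPKM, siIGF2BP1 had 5.73 ± 0.258 FPKM and siSRF had 6.38 ± 0.400 FPKM (SD, n = 3). RARA took 51.1 ± 3.93% of this sum in siC, 46.9 ± 2.59% in siIGF2BP1 and 59.0 ± 3.45% in siSRF. RARG took 34.8 ± 3.21%, 31.7 ± 4.01% and 22.7 ± 3.45%, respectively. The shares are parts of the same sum, so they are not independent of each other. The siSRF libraries were above all siC libraries for the share of RARA and below them for that of RARG, each with p = 0.1 in a two-sided exact permutation test, the smallest p that 3 libraries against 3 can reach. Of their partners, RXRA was at 1.97 FPKM in siC, at 1.22 FPKM in siIGF2BP1 and at 1.19 FPKM in siSRF on average, with siC separated from both knockdowns (adjusted p = 0.0325 and 0.0234 by limma, not past the threshold, but 0.000135 and 3.44e-05 by limma-voom, which called it lower in both).

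STRA6, the retinol receptor, had 0, 0 and 2 reads in siC, 5, 6 and 13 reads in siIGF2BP1 and 1, 1 and 0 reads in siSRF. It was thus higher in every siIGF2BP1 library than in any other, at 0.0848, 0.107 and 0.200 FPKM. Its mean stayed below the minimum for testing (0.1 FPKM over the 6 libraries compared). From the pooled reads, siIGF2BP1 exceeded siC 10.6-fold (95% confidence interval 2.62 to 92.2) and siSRF 12.1-fold (3 to 106), intervals that cover counting error only. CRABP2, the retinoic acid carrier, had 4 reads in all 9 libraries, and CYP26B1, which degrades retinoic acid, had 1 read in 1 library of each condition. For CRABP2 the limit of 3 reads corresponds to 0.299 to 0.413 FPKM per library, so lower levels of this short transcript were not detectable.

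**Figure D2:**
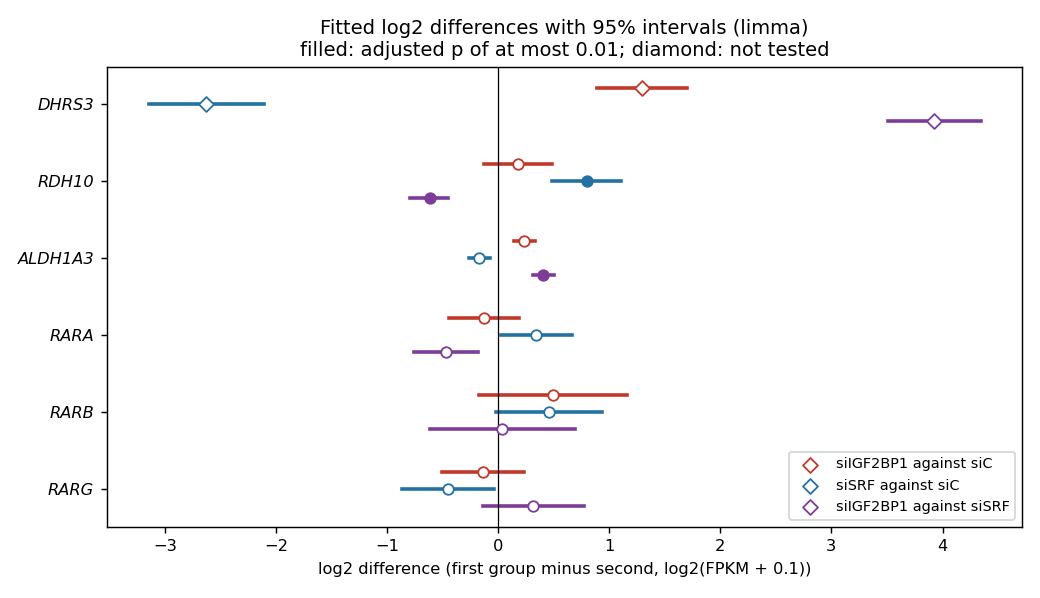
Fitted differences (horizontal axis, first condition minus second, log2(FPKM + 0.1)) with 95% confidence intervals for the 6 genes with reads in every library. Filled circles have a limma adjusted p of at most 0.01, and open circles do not. Diamonds (DHRS3) were not tested, and their intervals take no account of the choice of this gene by its fold changes. Against siC, the estimates of DHRS3 lie on opposite sides of 0, and those of ALDH1A3 lie close to 0 on the same sides. RDH10 is filled for siSRF against siC, and both RDH10 and ALDH1A3 are filled in the direct comparison.

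Counted over the 9 members other than DHRS3, 5 were abundant enough to be tested upon IGF2BP1 depletion and 0 passed by limma, where 7.12% of all genes tested did (3.55% higher and 3.57% lower). By limma-voom 1 passed, ALDH1A3, against 17.1% of all genes, and its unadjusted p by limma (0.000806) was the only one below 0.05. Upon SRF depletion 6 were tested (ALDH1A1 through siSRF library 2 alone) and 1 rose, RDH10, against 6.85% of all genes higher, 5.34% lower and 12.2% in either direction (23.4% by limma-voom, which called RDH10 alone of the members). In the direct comparison 6 were tested and 2 passed, ALDH1A3 upward (8.82% of all genes) and RDH10 downward (11.2%), against 20% of all genes in either direction. By limma-voom RARA was added, at 31% of all genes. Among the tested members, the libraries did not overlap between siIGF2BP1 and siC for ALDH1A3 (35.6% of all genes tested were separated), between siSRF and siC for RDH10, RARA, RARB, ALDH1A3 and RARG (39.9%), and between the knockdowns for RDH10, RARA, ALDH1A3 and RARG (46.1%). STRA6, which was not tested, was separated in siIGF2BP1 from both other conditions. These separated genes followed the direction of DHRS3 for ALDH1A3 and STRA6 in siIGF2BP1 and for ALDH1A3 and RARG in siSRF, while RDH10, RARA and RARB were on the opposite side from DHRS3 in siSRF.

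The pathway was then read from a wider list of 77 listed genes sorted by role, 76 without DHRS3. Upon IGF2BP1 depletion 39 were abundant enough to be tested, 1 rose and 3 fell (10.3%, beside 7.12% of all genes tested), and the median log2 fold change was 0.003, beside 0.017 over all genes tested. The gene that rose, AKR1B10, reached the level for testing through siIGF2BP1 alone, so its call adds no support to this count. Upon SRF depletion 40 were tested, 6 rose and 2 fell (20%, beside 12.2% of all genes), with a median of -0.024 beside 0.007. In the direct comparison 39 were tested, 7 were higher and 8 lower in siIGF2BP1 (38.5%, beside 20% of all genes), with a median of 0.044 beside 0.017. These counts shrank when 1 library was left out, to 1 lower and at most 1 higher gene in siIGF2BP1 and to at most 1 lower and 1 to 5 higher genes in siSRF.

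**Figure D3:**
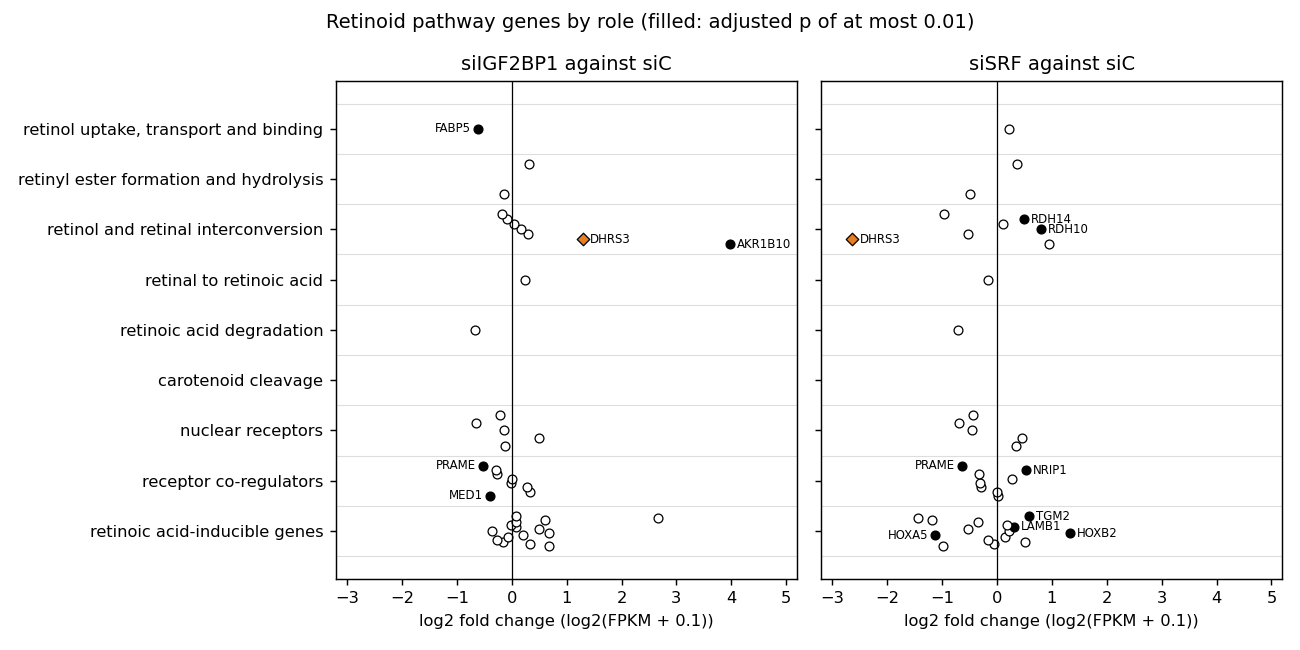
Log2 fold changes (horizontal axis, log2(FPKM + 0.1)) of the tested genes of the retinoid list against siC, arranged by role (vertical axis), for siIGF2BP1 on the left and siSRF on the right. Each point is 1 gene, filled where the limma adjusted p was at most 0.01 and named then, with DHRS3 as an orange diamond that was not tested; ALDH1A1, without a read in siC, is left out. Filled points lie on both sides of 0 in both panels. On the left, the filled point above 0 is AKR1B10, which reached the level for testing through siIGF2BP1 alone.

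Among binding proteins, FABP5, a fatty acid carrier that can also bring retinoic acid to another nuclear receptor, was the only listed gene of its role at a testable level. It was at 62.4, 59.0 and 60.1 FPKM in siC, at 39.1, 38.2 and 41.6 FPKM in siIGF2BP1 and at 72.3, 68.6 and 70.5 FPKM in siSRF. It fell upon IGF2BP1 depletion (log2 fold change -0.61, SE 0.0485, limma, adjusted p = 0.000918) and was lower there than in siSRF (-0.83, adjusted p = 6.75e-05). The direction was thus opposite to that of DHRS3 in siIGF2BP1.

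Among enzymes of retinol and retinal, RDH11, a retinal reductase, was the most abundant at 26.2, 27.0 and 28.2 FPKM on average in siC, siIGF2BP1 and siSRF, and did not pass the threshold (adjusted p = 0.662 and 0.227 against siC by limma). RDH14, of the same family, was at 9.83, 8.07 and 8.89 FPKM in siC and at 12.2, 12.9 and 12.5 FPKM in siSRF. It rose upon SRF depletion, as RDH10 did (0.49, SE 0.0812, adjusted p = 0.00779 by limma). DHRS4, a further reductase, differed between the knockdowns, with 8.63 FPKM in siIGF2BP1 and 4.89 FPKM in siSRF (0.81, adjusted p = 0.0025 by limma). Against siC, at 7.065 FPKM, DHRS4 did not pass by limma in siIGF2BP1 (0.29, adjusted p = 0.203) or in siSRF (-0.52, adjusted p = 0.0335). By limma-voom DHRS4 was called lower in siSRF (adjusted p = 0.00601). AKR1B10, an aldo-keto reductase that accepts retinal, rose upon IGF2BP1 depletion from 3 reads in siC to 107 reads (adjusted p = 0.00224 by limma). It reached the level for testing through siIGF2BP1 alone, and the call was lost with a pseudocount of 0.01 and when any siIGF2BP1 library was left out. Its pooled reads differed 31.4-fold (95% confidence interval 10.5 to 155, counting error only). In siSRF, 31 of its 32 reads came from library 2, the library that also held the ALDH1A1 reads.

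Of the receptor co-regulators, the corepressor PRAME fell in both knockdowns, from 18.1 FPKM in siC to 12.6 FPKM in siIGF2BP1 (-0.52, adjusted p = 0.00621 by limma) and 11.6 FPKM in siSRF (-0.64, adjusted p = 0.00293 by limma). MED1, a coactivator subunit of the Mediator complex, fell in siIGF2BP1 (-0.39, adjusted p = 0.00434 by limma). These calls depend on the number of libraries. With 1 library left out, 1 list gene was called lower in siIGF2BP1 instead of 3 (FABP5, PRAME and MED1). In siSRF it was at most 1 instead of 2 (PRAME and HOXA5). NRIP1, a corepressor that is itself inducible by retinoic acid, rose in siSRF from 17.8, 17.3 and 19.7 to 26.1, 27.1 and 25.7 FPKM (0.53, adjusted p = 0.00226 by limma). In siIGF2BP1 NRIP1 was at no more than 15.9 FPKM, below every siC library, where 35.6% of all genes tested were separated. That difference did not pass by limma (-0.28, adjusted p = 0.056) but passed by limma-voom (adjusted p = 0.00321). For NRIP1 the knockdowns differed by -0.80 (adjusted p = 0.000187 by limma). The coactivator NCOA2 went the other way between the knockdowns, with 10.3 FPKM in siIGF2BP1 and 6.88 FPKM in siSRF (0.58, adjusted p = 0.000508 by limma).

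Genes known to be induced by retinoic acid in other cells did not share a direction either. Of 15 tested, 0 passed in siIGF2BP1 by limma, where 7.12% of all genes did, and 3 rose and 0 fell by limma-voom, where 17.1% did. In siSRF 3 rose and 1 fell, beside 12.2% of all genes. In the direct comparison 4 were higher and 3 lower in siIGF2BP1, beside 20% of all genes. RARRES3 lay at the threshold in siIGF2BP1 (2.67, adjusted p = 0.0102 by limma). Upon SRF depletion the transglutaminase TGM2 rose from 114, 125 and 127 FPKM to 187, 185 and 176 FPKM (0.58, adjusted p = 0.00115 by limma). The homeobox gene HOXB2 rose from 4.02, 4.54 and 5.51 FPKM to 10.9, 11.0 and 13.8 FPKM (1.33, adjusted p = 0.00176 by limma). The laminin chain LAMB1 rose by 0.31 (adjusted p = 0.00365 by limma), while the homeobox gene HOXA5 fell by 1.12 (adjusted p = 0.0089 by limma). Of the genes that were higher in siIGF2BP1 than in siSRF, RARRES3, a phospholipase known as a retinoid-responsive gene, was at 3.72, 4.01 and 5.18 FPKM in siIGF2BP1 and at 0, 0.422 and 0.209 FPKM in siSRF (4.11, adjusted p = 0.003 by limma). The transcriptional repressor BHLHE40 and HOXA5 were also higher there (1.66 with adjusted p = 0.000713, and 1.33 with adjusted p = 0.00226, by limma). Against siC, BHLHE40 lay on the same sides as DHRS3, at 0.68 in siIGF2BP1 and -0.98 in siSRF, without overlap between libraries. Libraries were separated for 35.6% and 39.9% of all genes tested, respectively. BHLHE40 did not pass by limma (adjusted p = 0.0176 and 0.0164) but passed by limma-voom (adjusted p = 0.000525 and 0.000193). Lower in siIGF2BP1 than in siSRF were HOXB2 (-0.66, adjusted p = 0.00831), TGM2 (-0.50, adjusted p = 0.000305) and LAMB1 (-0.23, adjusted p = 0.00503, each by limma).

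The 5 genes most like DHRS3 over the 9 libraries, of 10379 compared, lay outside the retinoid list. The list holds few of the genes compared, so this says little about retinoid genes. By Pearson correlation of log2(FPKM + 0.1) among protein-coding genes that averaged 1 FPKM or more, the 5 genes were SCD (0.995), TUBA1A, CNN2, SORT1 and SERINC2 (0.994 each). These points share libraries and conditions and are a description of the pattern. SCD, a fatty acid desaturase, ranged from 166 to 191 FPKM in siC, from 240 to 255 FPKM in siIGF2BP1 and from 104 to 113 FPKM in siSRF. CNN2, an actin-binding calponin, was at 33.5 to 35.6, 56.6 to 68.3 and 8.08 to 9.27 FPKM, respectively. Of the retinoid set, ALDH1A3 was closest to DHRS3 (0.93) and RARA farthest (-0.861), with RDH10 at -0.79. The share of all genes that reach such values was not counted.

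**Figure D4:**
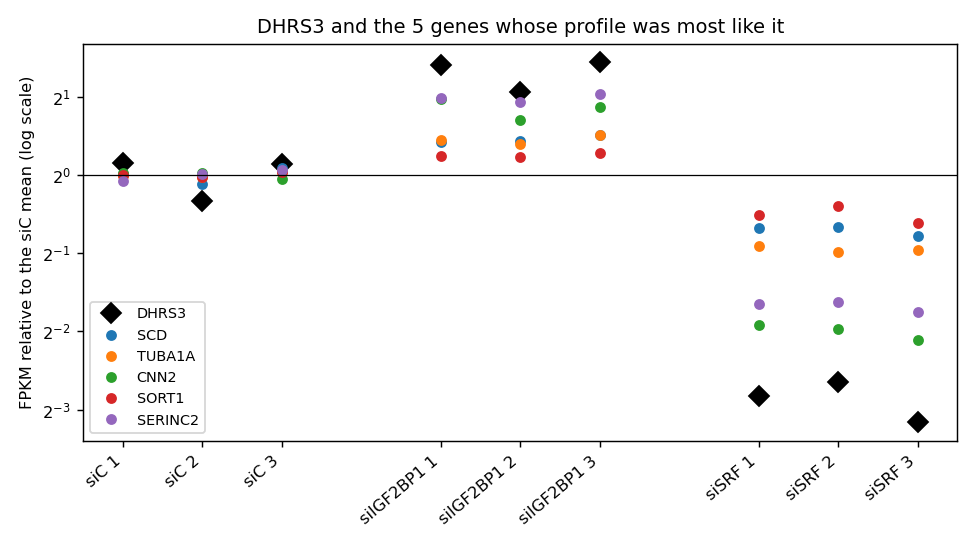
FPKM of DHRS3 and of the 5 genes whose profile was most like it, in each of the 9 libraries (horizontal axis), divided by the mean of the gene over the 3 siC libraries (vertical axis, log scale). All 6 genes lie above 1 in every siIGF2BP1 library and below 1 in every siSRF library, and DHRS3 (black diamonds) has the widest range.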

How the data were processed

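Total RNA of 9 ES-2 libraries (3 each of siC, siIGF2BP1 and siSRF) was depleted of rRNA, and directional libraries were sequenced. The authors clipped reads with cutadapt 1.14, aligned them with HISAT2 2.1.0 to GRCh38, and counted them on Ensembl genes with featureCounts 1.5.3. The strand setting is not given in the sources used here. The authors deposited FPKM per library with gene length in 2 tables that hold identical siC values. The log2 fold change, p-value and FDR columns deposited by the authors, from edgeR 3.18.1, were not used. Whole reads were recovered from FPKM times gene length for 100% of the values (within 0.01 of a whole number).

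Values were taken as log2(FPKM + 0.1), and genes averaging under 0.1 FPKM in the 6 libraries compared were left out. Two-sided tests used limma 3.58.1 under R 4.3.3 (lmFit, then eBayes with trend), with Benjamini-Hochberg adjustment across every gene tested and a threshold of 0.01. Scripts were tested on simulated data, where false calls lay among genes with few reads. Between 21857 and 22311 genes were tested per comparison. On the recovered reads, limma-voom called 3805 genes in siIGF2BP1 against siC, 5123 in siSRF against siC and 6912 between the knockdowns, against 1588, 2665 and 4460 by limma.

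The members and gene lists were chosen with earlier results of these data known. Named genes are all members, both siRNA targets, up to 3 called list genes per role and comparison with the largest change, list genes with at least 10 FPKM in siC, and the 5 genes most correlated with DHRS3. Cell type markers came from a separate list, and RXRA was named as partner of the receptors after its values were seen. Coordinates and overlapping genes are from GENCODE v44 (GRCh38). Other pseudocounts, filters, tests, a replicate block and leaving out each library were tried as alternatives.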

Additional observations from a re-analysis of the deposited data

Results flagged for a closer look

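A pair of genes, of 6 members tested, differed between the knockdowns in the direct test of siIGF2BP1 against siSRF, in which the siC libraries play no part. Of all genes tested in this comparison, 20% were called and 46.1% had libraries that did not overlap, so such a difference is common. RDH10 was lower in siIGF2BP1 than in siSRF by a log2 difference of -0.62, and all 3 siIGF2BP1 libraries were below all 3 siSRF libraries. ALDH1A3 was higher in siIGF2BP1 than in siSRF, by 0.41, again in all 3 libraries against all 3. Both calls (adjusted p of at most 0.01 by limma) were held under all 17 alternatives, with an adjusted p of up to 0.00824 for RDH10 and up to 0.00748 for ALDH1A3. With 3 libraries per condition, single libraries were not screened for outliers.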

How the results depend on the processing

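With 3 libraries per condition and few reads on the receptors, the number of calls depended on the setting. For siIGF2BP1 against siC, 1 member (ALDH1A3) passed with a mean of at least 1 FPKM, with limma-voom, with all 9 libraries in one fit, after correction for GC content and gene length (an alternative chosen after seeing the data) and at a threshold of 0.05. For siSRF against siC, 1 member (ALDH1A3) was called lower with all 9 libraries and at 0.05. In the direct comparison 2 members (RDH10 and RARA) were called lower by limma-voom, after GC and length correction and at 0.05.

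Of the list, in siIGF2BP1 against siC, 2 genes were called higher with a pseudocount of 1, 0 with 0.01, 4 with a mean of at least 1 FPKM, 2 with robust eBayes, 2 with all 9 libraries, 3 after GC and length correction and 6 at 0.05, and limma-voom called 6 higher and 5 lower. In siSRF against siC, 1 list gene was called lower with a pseudocount of 1 and 1 without a filter, 10 by limma-voom, 7 with all 9 libraries, 4 after GC and length correction and 12 at 0.05. Between the knockdowns, 14 were higher by limma-voom and 11 at 0.05. Over all genes, limma-voom called 1891 lower and 1914 higher in siIGF2BP1, 2343 and 2780 in siSRF, and 3282 higher between the knockdowns. All 9 libraries in one fit gave 1309 lower genes in siIGF2BP1. A threshold of 0.05 gave 1836 lower and 1760 higher, 2306 and 2899, and 3787 and 3345, in the same order of comparisons.

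Replicate numbers did not pair the libraries (correlation of same-numbered deviations between -0.0438 and 0.0186). With a replicate block, siIGF2BP1 against siC gave 31 lower and 60 higher genes and 0 list genes in either direction. For siSRF against siC it gave 244 and 257, with 0 list genes lower, 1 higher and 0 members higher (RDH10 0.80, adjusted p = 0.0141 by limma), and the direct comparison 1203 and 872, with 5 list genes lower.

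With 1 library left out, siIGF2BP1 against siC gave 224 to 329 lower and 212 to 420 higher genes, with 1 list gene lower and 0 to 1 higher. For siSRF against siC there were 482 to 673 and 464 to 1123, with 0 to 1 list genes lower, 1 to 5 higher and 0 to 1 members higher. The direct comparison gave 1577 to 1951 and 1214 to 1455, with 4 to 6 list genes lower and 4 to 5 higher. Fewer samples were fitted there.

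Directions turned for values that passed no test. RARA in siIGF2BP1 was at 0.007 after GC and length correction, and RARB between the knockdowns was at -0.15 without siIGF2BP1 library 2, -0.03 without siIGF2BP1 library 3 and -0.04 without siSRF library 3 (up to 0.285 with another library left out), and the cause was not tested. The fold change of DHRS3 in siSRF was -1.61 with a pseudocount of 1, which compresses low values, and kept its direction under all 17 alternatives.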

Other observations

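ALDH1A1 and AKR1B10, an enzyme each of retinal oxidation and retinal reduction, shared an uneven pattern over libraries. In siSRF library 2 there were 21 reads of ALDH1A1 and 31 of AKR1B10, while the other siSRF libraries held 0 and 0 of ALDH1A1 and 0 and 1 of AKR1B10. Of all 58174 genes, these 2 were the ones with at least 20 reads in siSRF library 2 and at most 3 in each other siSRF library and each siC library. By the same count, 0 genes stood apart in any other knockdown library. AKR1B10 also had 34, 30 and 43 reads in the siIGF2BP1 libraries. This pattern was noticed after the values were seen, and the cutoff of 20 reads lies just under the 21 reads of ALDH1A1. The count is therefore no measure of how rare such a pattern is.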
